A study of Mus musculus with 9 samples.

Results

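The genes described here are 44 targets of PPARalpha and enzymes of fatty acid oxidation, read from the livers of 9 aged mice. They were picked by symbol from a list of names that was drawn up with earlier results of these data known. All 44 were found among the 27179 genes of the deposited table, and all 44 were among the 12993 genes abundant enough to be tested. By role, 4 are regulators and secreted factors, 5 serve uptake, binding and activation of fatty acids, 4 form the mitochondrial carnitine shuttle, and 12 belong to mitochondrial beta-oxidation. A further 10 are peroxisomal, 1 is ketogenic, 2 are microsomal, 3 are thioesterases or a pantetheinase outside the peroxisome, and 3 coat lipid droplets.

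PPARalpha is a nuclear receptor that is activated by fatty acids and, together with RXR, binds response elements in its target genes. In liver it is best known for raising fatty acid use during fasting. Long-chain acyl groups enter mitochondria through the carnitine shuttle and are shortened there, and the acetyl-CoA they yield feeds the synthesis of ketone bodies. Peroxisomes shorten very long and branched chains, and microsomal CYP4A enzymes oxidise the omega end of the chain.

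The study asked what loss of cyclin D1 in hepatocytes does to the aged liver. All mice were C57BL/6J, labelled wild type, kept on normal chow and injected at 17 months of age with an AAV8 vector, and the liver lobe was taken 3 weeks later. In both groups the vector drove saCas9, a compact nuclease, from the hepatocyte promoter TBG, and a guide RNA from the U6 promoter. The guide was directed at Rosa26, a locus used as a cutting control (sgRosa26, n = 4), or at Ccnd1 (sgCcnd1, n = 5). Poly(A) RNA of lobe tissue was sequenced in bulk, so cells that the vector does not target were measured too. As names only, the control libraries are called A to D and the sgCcnd1 libraries E to I.

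Depth was 10.8 to 20.2 M assigned reads per library (M, mega). Levels are given as normalized counts, the reads of a gene divided by a size factor for each library, as the authors deposited them. A log2 fold change is the difference of group means of log2(normalized count + 1), sgCcnd1 minus sgRosa26. It was tested with limma, and adjusted p-values are over all genes tested, with a threshold of 0.05. Ccnd1 was at 625 to 867 normalized counts in sgRosa26 and 325 to 428 in sgCcnd1. The Ccnd1 groups did not overlap (log2 fold change -1.03, SE 0.11, limma adjusted p = 0.0116), and the sgCcnd1 mean was 48.6% of the control mean. It was the 1 gene of the whole table past the limma threshold. Summed hepatocyte markers overlapped between groups, at 1680950 to 1943210 in sgRosa26 and 1554010 to 2026460 in sgCcnd1, and 4 adipocyte markers summed to at most 2.91. Alb made up most of the hepatocyte sum. Of the 6 hepatocyte markers, 3 were higher and 3 lower in sgCcnd1, none at an unadjusted limma p under 0.05. The 6 monocyte and macrophage markers were all lower in sgCcnd1 and summed to 1704 to 1914 against 1311 to 1589, with 3 at an unadjusted limma p under 0.05. Markers of other cell types were also lower: all 3 tested of T and NK cells (3 at such a p, summed 54.1 to 147 against 19.0 to 113), 5 of 6 of stellate cells and fibroblasts (2 at such a p, 3494 to 5964 against 3184 to 4858) and 3 of 5 of cholangiocytes (1 at such a p, 928 to 1906 against 750 to 1165). All 4 B cell and both tested neutrophil markers were lower, as were 5 of 7 endothelial markers, none at such a p. Of the 6 Kupffer cell markers, 3 were lower and 3 higher, also none at such a p. Over all genes tested, 6116 of 12993 were lower. In bulk tissue, fewer cells of a type and less RNA per cell cannot be told apart. Of 12 clock genes tested, 5 were higher and 2 lower at an unadjusted limma p under 0.05, and the labels give no hour of harvest. In library H, 4 Y-linked genes summed to 2.00 normalized counts, with Xist at 2.00, whereas elsewhere that sum was 1619 to 2834 and Xist was at 0 to 3.92. The part of these cell markers, the clock genes and the Y-linked genes in the values below was not tested.

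The response element of the receptor is a pair of AGGTCA repeats 1 base apart. It was searched on both strands, 250 bases before to 50 bases after the start, in the RefSeq windows of 36 of the 44 members (GRCm38.p6). No member held the exact element, which occurs in 0.0481% of 27025 genes. Fabp1, the abundant fatty acid binding protein of liver, was the 1 member with at most 1 mismatch, a class that holds 0.644% of all genes. With at most 2 mismatches, 7 of 36 members held a match (19.4%), against 4.40% of all genes. A match is a run of letters in these windows and does not show binding. The Fabp1 window lies at chr6:71199629-71199928 on the plus strand. It is shown because it holds the closest match, in capitals, which lies 67 to 55 bases before the start and reads as the element on the minus strand.
Fabp1: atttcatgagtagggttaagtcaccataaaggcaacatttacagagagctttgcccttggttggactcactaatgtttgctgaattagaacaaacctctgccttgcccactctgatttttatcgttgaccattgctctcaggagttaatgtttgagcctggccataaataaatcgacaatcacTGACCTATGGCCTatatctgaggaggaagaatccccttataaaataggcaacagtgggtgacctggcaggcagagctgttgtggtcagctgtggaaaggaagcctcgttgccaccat

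The matches of the 7 members are set side by side below, read in the direction of the element, with the bases that equal AGGTCA on either side of the spacer in capitals.
Fabp1: AGGcCAtAGGTCA
Plin2: AGGTCAggGGTCc
Cd36: AaGTCAgAGGcCA
Etfa: AGGgCAaAGGTaA
Slc25a20: AGGTgAaAGGTCg
Creb3l3: AGGggAgAGGTCA
Acot4: cGGcCAaAGGTCA
These 7 members came from 6 of the 9 roles. Their log2 fold changes between groups were 0.13 to 0.27, from Slc25a20 to Cd36, with all libraries, and no one of them had an unadjusted limma p under 0.05. Without library A, Slc25a20 was at -0.070, Fabp1 at -0.013 and Plin2 at 0.047.

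Most members stood slightly higher in the sgCcnd1 livers, by an amount for which no member passed the test adjusted over all genes. The log2 fold change was above 0 for 41 of the 44 members (93.2%), against 52.9% of all genes tested. It was above 0 for 39 in edgeR and in DESeq2, 38 after scaling to the 75th percentile and 37 after quantile normalization. The median in limma was 0.19 over the members and 0.01 over all genes tested. None of the 44 passed an adjusted p of 0.05 in limma, where 0.0077% of all genes tested did, nor in edgeR. DESeq2 called 0.976% of the genes it adjusted and none of the members, of which Acadvl came closest (DESeq2 adjusted p = 0.135). Without adjustment, 8 members had a limma p under 0.05 and all were higher in sgCcnd1, which is 18.2% of the members against 5.22% of all genes tested. In edgeR 7 and in DESeq2 8 members had such a p (4.42% and 4.71% of all genes), 6 after scaling to the 75th percentile (3.57%) and 3 after quantile normalization (4.39%). None was lower at that p in the limma fit of all libraries, where 5.74% of all genes tested were. In no member did the groups separate fully, whereas they did so in 3.89% of all genes tested. In simulated counts with these groups, limma recovered 96% of genes changed 2-fold and 58% of genes changed 1.5-fold. The changed genes were drawn from those above a minimum mean, and changes as small as the members' median of 0.19 were not simulated.

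**Figure D1:**
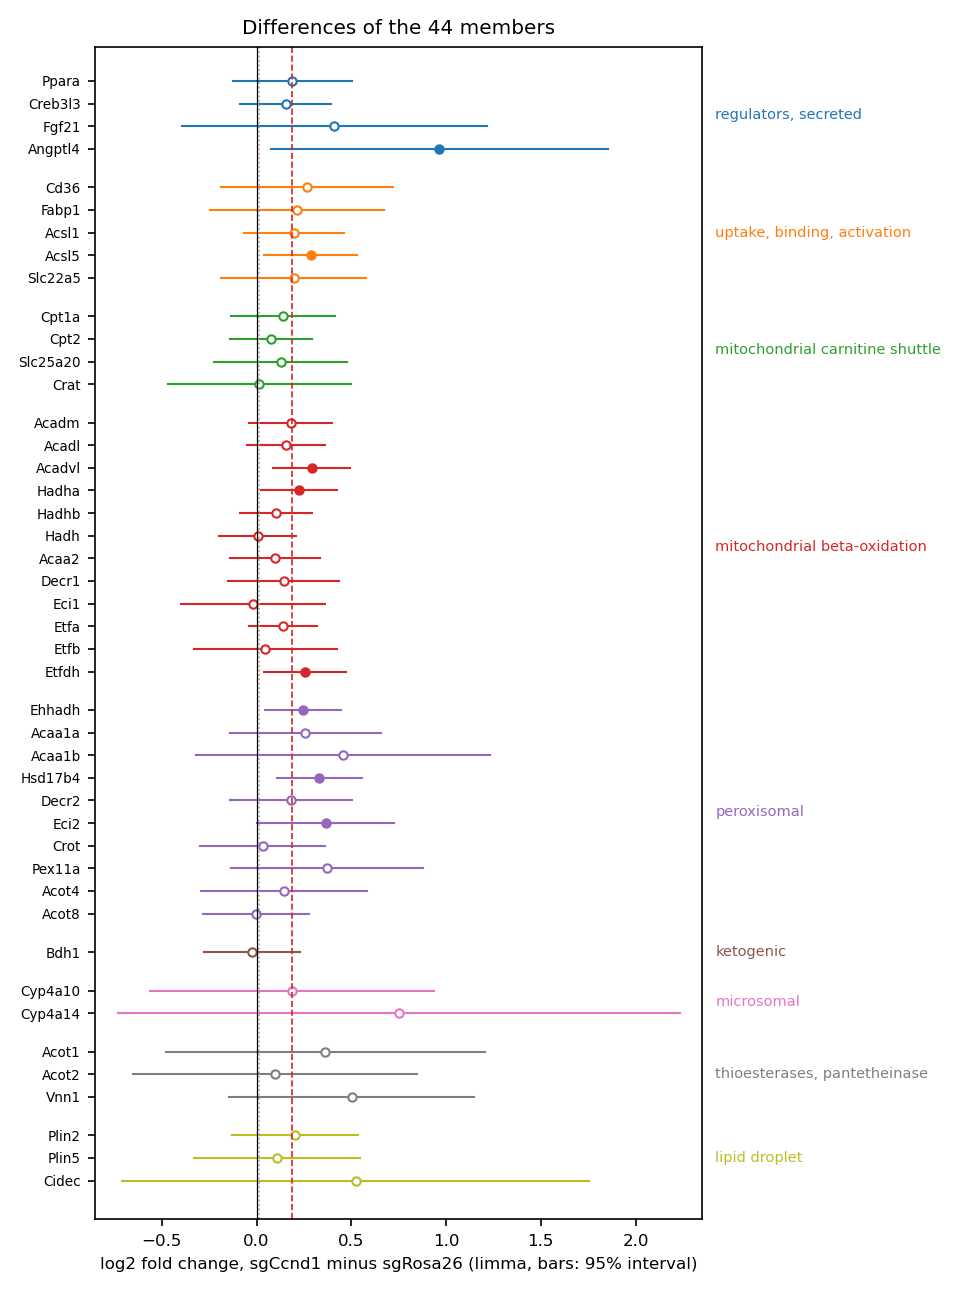
Log2 fold change of each of the 44 members (sgCcnd1 minus sgRosa26, limma) with its 95% interval, coloured by role; filled circles mark the 8 members with an unadjusted p under 0.05, the dashed line the members' median of 0.19 and the dotted line the median of all genes tested, 0.01. Most circles lie right of 0, and the intervals of the microsomal Cyp4a14 and of Cidec are the widest.

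The size of this lean depended on 1 control library. Library A was the lowest of the 9 libraries for 31 of the 44 members, whereas it was lowest for 16.2% of all genes tested. Its median deviation from the control mean was -0.28 on the log2 scale over the members and 0.00 over all genes tested. The highest library was D, also a control, for 14 members and I, an sgCcnd1 library, for 16. The median deviations of the other controls were 0.05 in B, -0.03 in C and 0.29 in D. In sgCcnd1 it was -0.02 for E and 0.21 for F, while G and H were both at 0.23 and I at 0.31. Library D thus stood as high as most sgCcnd1 libraries, and E stood as low as the middle controls. Without library A, the median over the members was 0.05, 30 of 44 were higher, and 2 had an unadjusted limma p under 0.05, Acadvl and Hsd17b4, a share no larger than the 6.96% of all genes tested that were higher at such a p in that setting. Without library D, the median was 0.27, 44 of 44 were higher, and 13 had such a p (4.81% of all genes tested). Without library H, which lacks Y-linked transcripts, the median was 0.19 and 5 had such a p (3.73% of all genes tested).

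**Figure D2:**
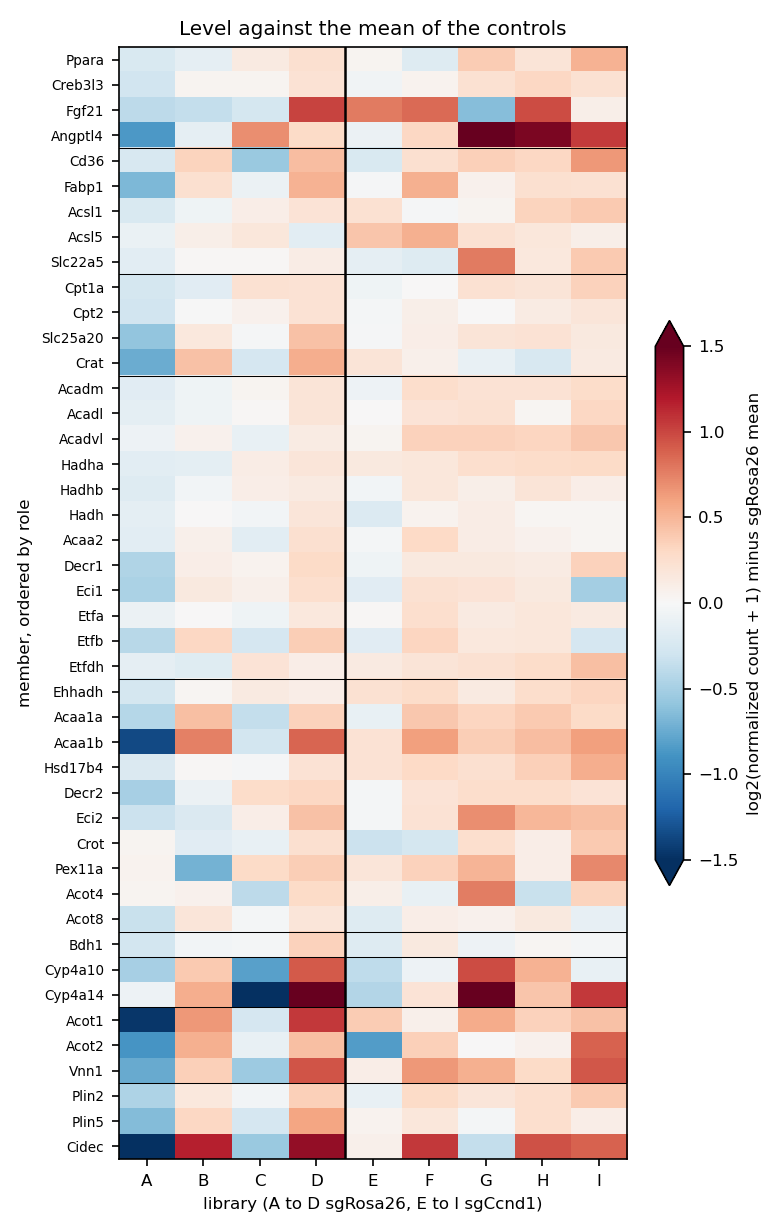
Deviation of each member (rows, ordered by role) in each library (columns) from the mean of the 4 sgRosa26 libraries, on the log2(normalized count + 1) scale. Column A is blue over most rows and column D red, and the sgCcnd1 columns F to I are mostly pale red, with medians of 0.21 to 0.31.

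**Figure D3:**
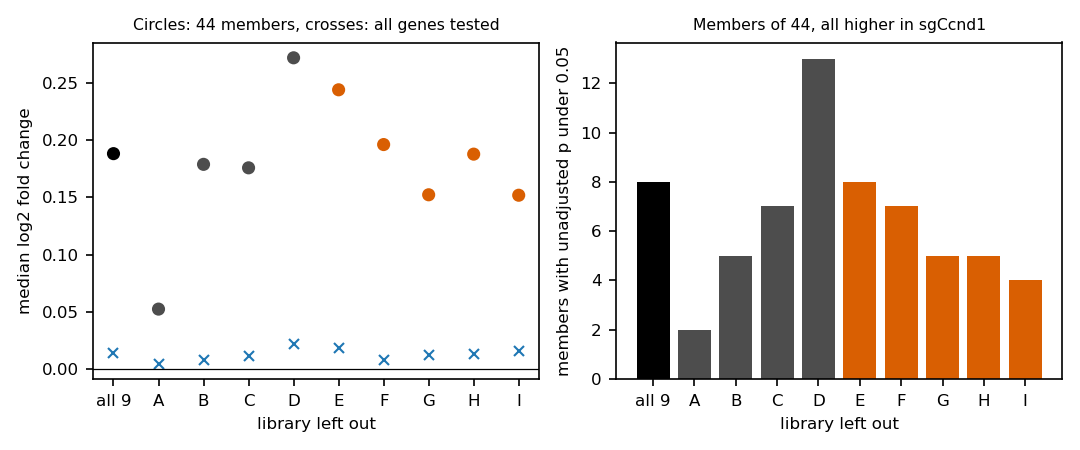
Left, the median log2 fold change of the 44 members (circles) and of all genes tested (crosses) with all 9 libraries and with each left out in turn; right, the number of members with an unadjusted limma p under 0.05. The members' median is lowest, 0.05, without library A and highest, 0.27, without library D, and the count runs from 2 to 13.

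The receptor itself and 3 further factors formed the first group. All 4 were higher in sgCcnd1, with a median log2 fold change of 0.30, which was 0.20 without library A and 0.51 without library D. Ppara encodes the receptor. Its normalized counts were 2794, 2979, 3589 and 3857 in A to D and 3372, 2876, 4253, 3747 and 4713 in E to I. The groups overlapped, with library F near the lowest control (log2 fold change 0.19, SE 0.14, limma adjusted p = 0.654). Creb3l3 encodes CREBH, a liver transcription factor that acts with PPARalpha in fasting. It was at 2267, 2852, 2863 and 3217 normalized counts in A to D and at 2681, 2878, 3261, 3437 and 3259 in E to I. The 3 libraries G to I lay above all controls, by little, and the log2 fold change was 0.15 (SE 0.11, limma adjusted p = 0.632). Without library A the log2 fold changes of Ppara and Creb3l3 were 0.11 and 0.056.

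Among these 4 genes, the secreted factors varied most among animals. Angptl4, an inhibitor of lipoprotein lipase, had the largest log2 fold change of the 44 in limma, 0.97 (SE 0.41, 1.95-fold, limma adjusted p = 0.417). Its normalized counts were 227, 377, 673 and 505 in A to D and 389, 511, 1837, 1100 and 856 in E to I. Libraries G, H and I exceeded every control, while E and F lay inside the control range. Its value without library A was 0.68, with an unadjusted limma p of 0.121. Fgf21 encodes a hormone that the liver secretes in fasting. It was scarce, at 22.1, 22.8, 24.4 and 60.2 normalized counts in A to D and 51.1, 53.7, 18.6, 59.0 and 31.2 in E to I. The highest and the lowest library were the control D and the sgCcnd1 library G (log2 fold change 0.41, SE 0.37, limma adjusted p = 0.703). The value of Fgf21 was 0.75 without library D.

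All 5 genes of uptake, binding and activation were higher in sgCcnd1, by 0.20 to 0.29 on the log2 scale with all 9 libraries. Acsl5 encodes an acyl-CoA synthetase, which activates fatty acids by coupling them to coenzyme A. It was at 7712, 8784, 9290 and 7426 normalized counts in A to D and at 11004, 11996, 9663, 9282 and 8768 in E to I. Libraries E, F and G lay above all controls and H and I inside their range (log2 fold change 0.29, SE 0.11, limma adjusted p = 0.384). Cd36 encodes a membrane protein of fatty acid uptake. It was at 810, 1213, 653 and 1325 normalized counts in A to D and at 823, 1139, 1228, 1194 and 1504 in E to I, so that only library I exceeded the controls (log2 fold change 0.27, SE 0.21, limma adjusted p = 0.66). Its value was 0.082 without library C, 0.42 without D and 0.17 without I. Fabp1, Acsl1 and the carnitine transporter gene Slc22a5 had log2 fold changes of 0.20 to 0.21 and unadjusted limma p-values of 0.129 to 0.332. Without library A the log2 fold change was -0.01 for Fabp1 and 0.12 for Acsl1, and that of Slc22a5 was 0.052 without library G.

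The carnitine shuttle showed a small lean. All 4 genes were higher in limma, with log2 fold changes of 0.01 to 0.14 and a median of 0.10, though Crat was lower in edgeR, in DESeq2 and under both other scalings, and none had an unadjusted limma p under 0.05. Cpt1a encodes the outer membrane enzyme that sets the rate of entry. Its normalized counts were 3894, 4155, 5490 and 5461 in A to D and 4480, 4694, 5496, 5355 and 5952 in E to I. Controls A and B lay below every sgCcnd1 library and controls C and D among the highest (log2 fold change 0.14, SE 0.13, 95% interval -0.14 to 0.41, limma adjusted p = 0.706), and it was 0.049 without library A. Cpt2, the inner membrane enzyme, and Slc25a20, the carnitine and acylcarnitine carrier, had log2 fold changes of 0.08 and 0.13. Library A was the lowest of the 9 for all 4 genes, and the median of the group was -0.04 without it and 0.062 in edgeR.

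Mitochondrial beta-oxidation held the steadiest genes. Of its 12 members, 11 were higher in sgCcnd1 in limma, though Hadh was lower in the count models and under both other scalings and Etfb under quantile normalization, and 3 had an unadjusted limma p under 0.05, with a median log2 fold change of 0.14. That median was 0.076 without library A and 0.068 with quantile normalization. The spread between animals of 1 group, as a pooled SD, was under 0.2 on the log2 scale in 9 of the 12. The median pooled SD over these 12 was 0.14. It was 0.20 for all genes tested and 0.17 for those whose mean reached 100 normalized counts. Acadvl encodes the very long chain acyl-CoA dehydrogenase, the first step for long chains at the inner membrane. It was at 4381, 4867, 4307 and 5035 normalized counts in A to D and at 4789, 5882, 5888, 5815 and 6121 in E to I. The 4 libraries F to I lay above all controls, and library E lay among them. Its log2 fold change was 0.29 (SE 0.09, 1.22-fold, limma adjusted p = 0.311). The exact permutation p of Acadvl was 0.0317, and its unadjusted p, 0.00841 in limma with all libraries, was at or under 0.0297 in all 20 alternative settings (limma, edgeR or DESeq2), leaving out each library among them.

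Hadha encodes the alpha subunit of the trifunctional protein, which carries out the remaining steps for long chains. It was at 4066, 4114, 4906 and 5155 normalized counts in A to D and at 5000, 5085, 5391, 5498 and 5519 in E to I. Libraries G to I exceeded every control, and D exceeded E and F (log2 fold change 0.22, SE 0.09, limma adjusted p = 0.401). Hadhb, the beta subunit of the same protein, had a log2 fold change of 0.10 (SE 0.09), or 0.037 without library A, and 62.4% of the 50-base windows of its reference transcript also occur in other genes, so its reads could have been split. Etfdh encodes the oxidoreductase that passes electrons from the acyl-CoA dehydrogenases to the respiratory chain. Its normalized counts were 3038, 2939, 3836 and 3572 in A to D and 3641, 3795, 3900, 4039 and 4539 in E to I. Control C lay above libraries E and F, and all 5 sgCcnd1 libraries lay above A, B and D (log2 fold change 0.26, SE 0.10, limma adjusted p = 0.382). Etfa and Etfb, the flavoprotein subunits that hand electrons to it, had log2 fold changes of 0.14 and 0.05, and 67.3% of the windows of Etfb occur in other genes.

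Acadm encodes the medium chain acyl-CoA dehydrogenase, a classical PPARalpha target. It was at 4516, 4870, 5203 and 5790 normalized counts in A to D and at 4826, 6077, 5898, 5905 and 6162 in E to I. The 4 libraries F to I lay above all controls and library E below 3 of them (log2 fold change 0.18, SE 0.10, limma adjusted p = 0.53). Acadl, Decr1, Acaa2, Hadh and Eci1 made up the rest of the group, with log2 fold changes of 0.16, 0.14, 0.10, 0.01 and -0.02. Without library A, Decr1 was at -0.0067 and Acaa2 at 0.044, and Acaa2 was at 0.0003 with quantile normalization. Hadh, the short chain hydroxyacyl-CoA dehydrogenase, had the 95% interval -0.20 to 0.21.

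**Figure D4:**
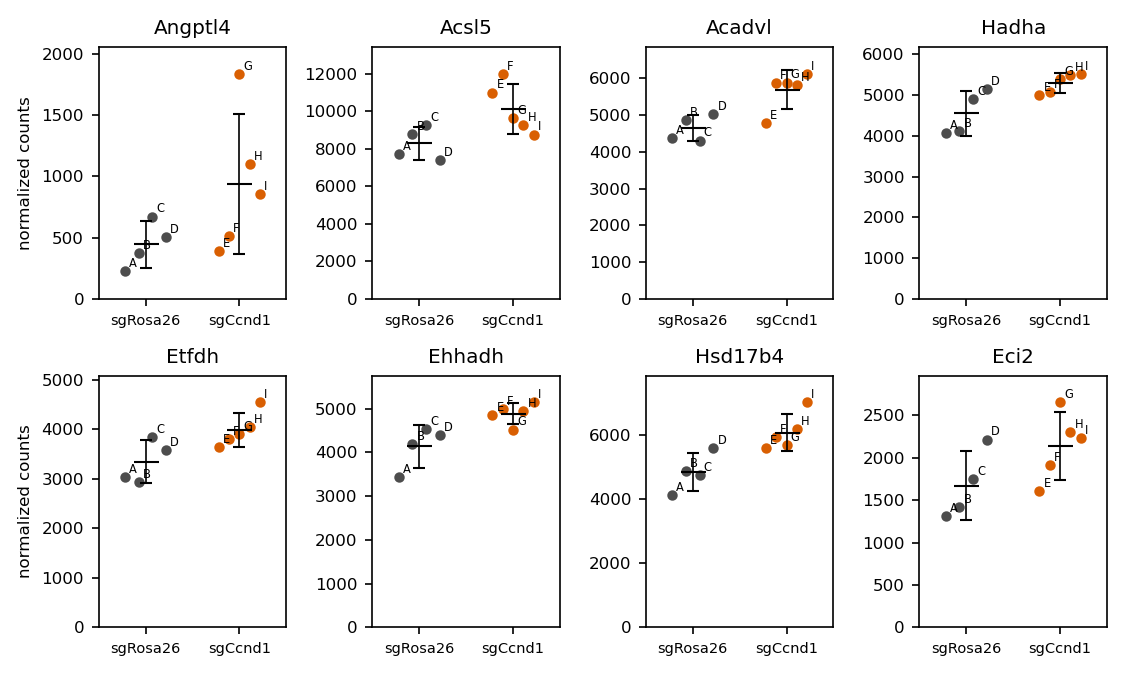
Normalized counts of the 8 members with an unadjusted limma p under 0.05, by library (points with letters), with the group mean and SD (bar). In each panel the sgCcnd1 mean is the higher one and at least 1 control point lies within the range of the sgCcnd1 points.

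The peroxisomal members had a higher median than the mitochondrial ones, which did not hold in the wider lists given further on. Of 10 members, 9 were higher in sgCcnd1 in limma, though Crot was lower under both other scalings, and 3 had an unadjusted limma p under 0.05, with a median log2 fold change of 0.25, which was 0.14 without library A. Hsd17b4 encodes the D-bifunctional protein, which serves the oxidation of very long and branched chains and of bile acid precursors. It was at 4147, 4883, 4770 and 5617 normalized counts in A to D and at 5595, 5945, 5696, 6191 and 7030 in E to I. The groups met only where control D lay just above library E. The log2 fold change was 0.33 (SE 0.10, 1.26-fold), and its limma adjusted p of 0.306 was the lowest of the 44. The exact permutation p of Hsd17b4 was 0.0159, and its unadjusted p, 0.00711 in limma with all libraries, was at or under 0.0254 in the same 20 settings.

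Ehhadh encodes the L-bifunctional protein, which is strongly induced by PPARalpha agonists. It was at 3435, 4192, 4529 and 4400 normalized counts in A to D and at 4841, 4991, 4519, 4935 and 5138 in E to I. Control C and library G were nearly level, and the other 4 sgCcnd1 libraries exceeded all controls (log2 fold change 0.25, SE 0.09, limma adjusted p = 0.372). Without library A it was 0.16, with an unadjusted limma p of 0.0685. Eci2, an enoyl-CoA isomerase for unsaturated chains, was at 1312, 1413, 1746 and 2212 normalized counts in A to D and at 1603, 1908, 2649, 2302 and 2228 in E to I. Control D lay above libraries E and F (log2 fold change 0.37, SE 0.17, limma adjusted p = 0.452).

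The other 7 peroxisomal genes had unadjusted limma p-values of 0.135 or more. The thiolase gene Acaa1b ran from 3917 normalized counts in A to 18314 in D among the controls and from 11581 to 15344 in sgCcnd1, and its log2 fold change of 0.46 was 0.21 in edgeR and 0.0072 without library A. About 35.5% of its windows are shared with Acaa1a, which had a log2 fold change of 0.26, and 0.12 without library A. Pex11a, a gene of peroxisome division, was at 18.4 to 51.1 normalized counts, with a log2 fold change of 0.37 (SE 0.23), and 0.14 without library B. Decr2, Acot4, Crot and Acot8 had log2 fold changes of 0.18, 0.15, 0.03 and -0.0019, and Decr2 was at 0.016 without library A.

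The 1 ketogenic member, Bdh1, encodes the mitochondrial dehydrogenase that interconverts acetoacetate and beta-hydroxybutyrate. It was at 2716, 3181, 3208 and 4154 normalized counts in A to D and at 2865, 3635, 3116, 3354 and 3205 in E to I. Every sgCcnd1 library lay inside the control range (log2 fold change -0.02, SE 0.12, 95% interval -0.28 to 0.23, limma adjusted p = 0.959).

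The microsomal genes Cyp4a10 and Cyp4a14 encode omega-hydroxylases and are among the most sensitive PPARalpha targets of mouse liver. Cyp4a10 was at 594, 1102, 475 and 1587 normalized counts in A to D and at 643, 795, 1653, 1202 and 778 in E to I. Cyp4a14 was at 971, 1494, 233 and 3272 in A to D and at 755, 1185, 5859, 1374 and 2142 in E to I. For both genes control C was the lowest of the 9 libraries and library G the highest, with control D next to it. Cyp4a14 thus differed 14.1-fold among controls and 7.76-fold among sgCcnd1 libraries. Its log2 fold change was 0.75 (SE 0.68, 95% interval -0.73 to 2.23, limma adjusted p = 0.706), and it was 0.04 without control C, 0.31 without library G and 1.31 without control D. That of Cyp4a10 was 0.19 (SE 0.34, 95% interval -0.56 to 0.93, limma adjusted p = 0.879), and it was 0.021 without library A, -0.086 without C, -0.011 without G and 0.49 without D. With intervals this wide, a microsomal difference of 1.5-fold could have gone undetected in these animals. About 30.5% of the windows of Cyp4a10 occur in other genes, most of them in Cyp4a32.

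Set side by side, the median log2 fold change was 0.25 over the 10 peroxisomal members, 0.14 over the 12 of mitochondrial beta-oxidation, 0.10 over the 4 of the carnitine shuttle and -0.02 for Bdh1. The 2 microsomal values were 0.19 and 0.75. Without library A the peroxisomal, mitochondrial and shuttle medians were 0.14, 0.076 and -0.045. The differences between compartments were not tested. By library, the peroxisomal median exceeded the mitochondrial one in each of the 5 sgCcnd1 libraries, from 0.25 against 0.22 in F to 0.37 against 0.21 in I. It was also further from 0 in controls A (-0.29 against -0.16) and D (0.30 against 0.19). The peroxisomal genes thus spread more in both directions, with a median pooled SD of 0.29 against 0.14.

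Acot1 and Acot2 encode acyl-CoA thioesterases, and Vnn1 encodes vanin, a pantetheinase induced through PPARalpha. Vnn1 was at 330, 714, 383 and 1078 normalized counts in A to D and at 600, 876, 806, 683 and 1070 in E to I. Controls A and C were low and control D was the highest of the 9 (log2 fold change 0.50, SE 0.30, limma adjusted p = 0.554), and the value was 0.25 without library A. Acot1 was at 36.9, 163, 86.3 and 217 normalized counts in A to D and at 135, 109, 153, 132 and 141 in E to I, so that all sgCcnd1 libraries lay within the control range (log2 fold change 0.36, SE 0.39, limma adjusted p = 0.754). Acot2 was at 25.8 to 90.8 normalized counts, with a log2 fold change of 0.10, and 33.2% of the windows of Acot1 and 27.7% of those of Acot2 occur in other genes. The median of the 3 genes was 0.36 in limma, 0.06 in edgeR and -0.12 without library A.

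The 3 lipid droplet genes had a median log2 fold change of 0.20, which was 0.089 in edgeR, 0.11 in DESeq2 and -0.11 without library A. Plin2 encodes the main coat protein of lipid droplets in hepatocytes. It was at 3657, 5616, 4897 and 6468 normalized counts in A to D and at 4683, 6173, 5736, 6024 and 6621 in E to I. Control A was the lowest and only library I exceeded control D (log2 fold change 0.20, SE 0.15, limma adjusted p = 0.65), and the value was 0.047 without library A. Cidec, which promotes droplet fusion, ran from 50.4 in A to 482 in D among controls and from 151 to 404 in sgCcnd1. Plin5, which links droplets to mitochondria, ran from 262 in A to 621 in D among controls and from 404 to 491 in sgCcnd1.

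The members differed widely in how steady they were, with a pooled SD within groups of 0.10 for Etfa to 1.35 for Cyp4a14 on the log2 scale. It was over 0.5 in 9 members: Vnn1, Acot2, Cyp4a10, Fgf21, Acaa1b, Acot1, Angptl4, Cidec and Cyp4a14. It was under 0.2 in 17 members, and its median was 0.27 over the 44 against 0.20 over all genes tested and 0.17 over those whose mean reached 100 normalized counts. Several of the variable genes kept the same order among controls. For Acaa1b, Cidec, Crat, Acot1, Vnn1 and Plin5, controls A and C were below B and D. The sgCcnd1 libraries of these 6 genes lay between the lowest and the highest control. Other members had the same order among controls but 1 sgCcnd1 library above them all. Among these were Cyp4a10, Cyp4a14, Acot2, Cd36, Fabp1 and Plin2.

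In abundance per length the members spanned a wide scale. Fabp1 was highest, with a control mean of 67375 normalized counts per kb of exon, followed by Acaa2 at 7273, Acaa1b at 6021, Etfb at 2477 and Etfa at 2404. Cyp4a14 was at 574 and Cyp4a10 at 445 on this scale. The lowest were Fgf21 at 34.1, Acot1 at 32.1, Acot2 at 23.8 and Pex11a at 10.0.

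Across the 9 libraries, 85 pairs were correlated on the log2 scale, each of the other members with Ppara and with Cyp4a10. The libraries share groups, and p-values come from exact permutation of the pairings, two-sided, adjusted over the 85 pairs. Most pairs were positive, 38 of 42 with Ppara and 41 of 43 with Cyp4a10, with a median r of 0.52 and 0.53. Without libraries A and I, 29 of 42 were positive with Ppara (median r 0.22), and without D and G 41 of 43 with Cyp4a10 (median r 0.43). By r over all 9 libraries, Ppara was most like Cpt1a, with r = 0.90 (exact permutation adjusted p = 0.0483) and rho = 0.90 (exact permutation adjusted p = 0.0862). Without libraries A and I, the farthest from the median of Ppara, r was 0.82. By rho, Slc22a5 was level with Cpt1a, at 0.90, and without A and I Crot ranked above it, with r = 0.83. By r over all 9 libraries, Cyp4a10 was most like Cyp4a14, with r = 0.88 (exact permutation adjusted p = 0.0483) and rho = 0.87 (exact permutation adjusted p = 0.0958), and r was 0.74 without D and G. By rho, Slc25a20 ranked above it (0.88, exact permutation adjusted p = 0.0871), and without D and G Acaa1a (r = 0.88), Cd36 (r = 0.78), Plin5 (r = 0.76) and Etfb (r = 0.75) did. No pair passed the threshold by both measures. Within groups, as residuals from the group means, r was 0.88 for Ppara and Cpt1a and 0.88 for Cyp4a10 and Cyp4a14.

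**Figure D5:**
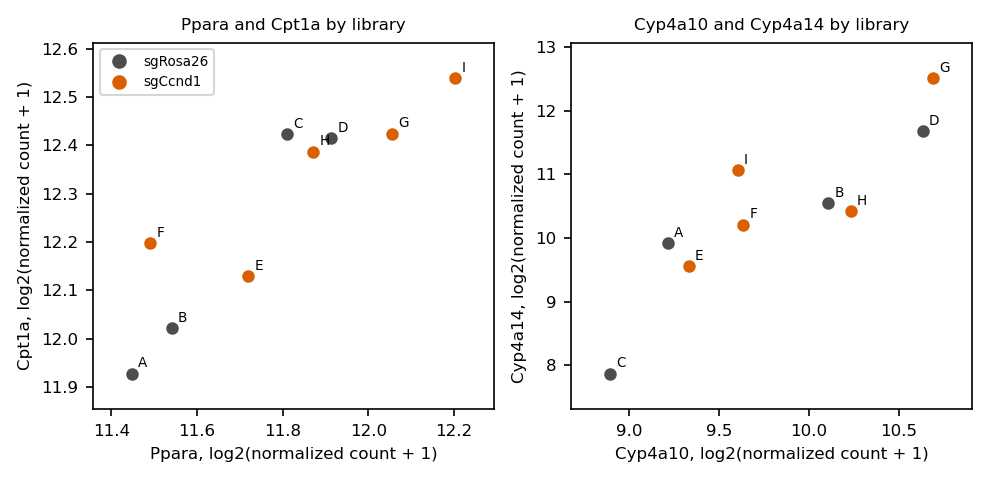
Library values of Ppara against Cpt1a (left) and of Cyp4a10 against Cyp4a14 (right), both axes in log2(normalized count + 1), with controls A to D in grey and sgCcnd1 libraries E to I in orange. Grey and orange points mix along each diagonal, with r = 0.90 and r = 0.88.

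The wider pathway was read from 110 other genes of ketone body synthesis, mitochondrial, peroxisomal and omega oxidation, nuclear receptors and their partners, lipolysis, malonyl-CoA, and further PPARalpha targets and transport. Of 105 tested, 82 were higher in sgCcnd1, with a median log2 fold change of 0.12, 17 had an unadjusted limma p under 0.05 and were higher (16.2%), and 3 were lower. Over all genes tested, 52.9% were higher and 5.22% were higher at such a p. By list, the median was 0.14 over 16 tested genes of mitochondrial oxidation, of which 15 were higher and 6 at such a p, and 0.12 over 29 tested peroxisomal genes, of which 23 were higher and 2 at such a p (6.90%, near the share of all genes). It was 0.10 over 6 genes of ketone body synthesis and export, of which 5 were higher, unlike Bdh1, and 0.20 over 10 genes of omega oxidation, of which 9 were higher. Among the 11 tested further PPARalpha targets and transport genes, 6 were higher and 5 lower, 2 and 1 of them at such a p, with a median of 0.0094. None of the 105 passed the limma threshold, and in 7 the groups did not overlap (6.67%, beside 3.89% of all genes tested). Of those 7, 6 also had an unadjusted limma p under 0.05, all higher in sgCcnd1. Pcca and Pccb encode the subunits of propionyl-CoA carboxylase, which handles, among other substrates, the last carbons of odd chains. The log2 fold change was 0.38 for Pcca (limma adjusted p = 0.225) and 0.25 for Pccb (limma adjusted p = 0.266). Hacl1, which cleaves 2-hydroxy acids in peroxisomal alpha-oxidation, differed by 0.60 on the log2 scale (limma adjusted p = 0.225). DESeq2 called these 3, with adjusted p-values of 0.00072, 0.0314 and 0.00455 for Pcca, Pccb and Hacl1. Acsm3, Slc27a5 and Acad11 had log2 fold changes of 0.34, 0.29 and 0.28 and limma adjusted p-values of 0.334 to 0.375. Without library A these 6 values were 0.23 to 0.50, beside 0.25 to 0.60 with all libraries. Their groups did not overlap, and leaving out 1 control cannot make such groups meet. Of the others with an unadjusted limma p under 0.05, some fell without library A. Nudt7 went from 0.55 to 0.36 and Retsat from 0.44 to 0.26. Some rose, with Mmut going from 0.27 to 0.32 and Rxra from 0.23 to 0.30. The counts and medians of the wider lists were not taken again without library A. In the omega oxidation list, library A was the lowest library for Cyp4a12a, Cyp4a12b, Cyp4a32, Cyp4f15, Cyp4v3 and Aldh3a2. Aldh3a2 (log2 fold change 0.15) was at 2510 normalized counts in A and 4103 to 7221 in the other controls. It was at 4443 to 6028 in sgCcnd1. How far the omega oxidation median of 0.20 rests on library A was thus not tested.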

How the data were processed

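The members and gene lists were chosen with earlier results of these data known. The authors deposited a never-negative signal: reads of each gene scaled by the library's size factor. Per the submitters' processing notes, Trim Galore 0.6.7, HISAT2 2.2.1, featureCounts 2.0.3 and DESeq2 2.11.40.8 were used with mm10 (GRCm38), and strand use is not given in the sources used here. Columns were matched to groups by name. Dividing by the value of 1 read gave whole reads for 100% of genes in every library (tolerance 0.1 read). For library H that value was close to 1 (0.9996), and edgeR and DESeq2 were repeated without that library.

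The test was limma 3.58.1 (R 4.3.3, eBayes with trend, two-sided, no covariate) on log2(normalized count + 1) for genes with a mean of at least 10, adjusted by Benjamini-Hochberg over 12993 genes. This scale understates changes of low genes. It was tested on simulated data. Recovered reads were fitted with edgeR 4.0.16 and DESeq2 1.42.0 as alternatives. Exact permutation used all 126 assignments of the libraries to the groups, with a smallest p of 0.00794. Statistics per gene are given for Ppara, Creb3l3, Fgf21, Cpt1a, Acadm, Hadha, Ehhadh, Bdh1, Cyp4a10, Cyp4a14, Acot1, Vnn1, Cd36 and Plin2, for other members with an unadjusted p under 0.05, and for genes of the other pathway lists with such a p and no overlap. Exon lengths and shared 50-base windows came from the GENCODE annotation of GRCm38, and promoters from RefSeq.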

Additional observations from a re-analysis of the deposited data

Results flagged for a closer look

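Among the 88 groups of values (44 members in 2 groups), 6 held a library far from the rest, where chance gives about 4.4. Fgf21 was at 60.2 normalized counts in control library D, where A to C ranged from 22.1 to 24.4. Cyp4a14 was at 5859 in sgCcnd1 library G, against 755 to 2142 in the other sgCcnd1 libraries. In the other 4 cases sgCcnd1 library E was low. Acadm was at 4826 there against 5898 to 6162, Acadvl at 4789 against 5815 to 6121, Acaa1a at 1608 against 2123 to 2295, and Decr2 at 3422 against 4002 to 4182. Library E had 20.2 M reads, the most of the 9.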

How the results depend on the processing

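No paired analysis was possible because no column name gives a replicate number. No member passed an adjusted p of 0.05 under any alternative run: other pseudocounts and filters, other scalings, count models, or leaving out each library. Of 877 values of members under alternatives, 816 kept their direction, and 61 turned to the other side of 0, none of them past the threshold. Depth of 10.8 to 20.2 M reads leaves scarce members such as Pex11a, Fgf21 and Acot2 with few reads. Why values moved was not tested, other than that leaving out a library uses fewer samples.

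The count of members higher at an unadjusted limma p under 0.05, 8 with all libraries, was 3 with quantile normalization (4.39% of all genes). It was 5 in DESeq2 (3.31%) and 4 in edgeR (3.19%) without library H, both chosen after seeing the data, and ran from 2 (without A) to 13 (without D) over single libraries left out. It was 5 without B, G or H and 4 without I. The share of all genes tested that were higher at such a p was 6.96% without A, 4.81% without D, 3.76% without B, 4.25% without G, 3.73% without H and 3.90% without I, so the count without A was no larger than its background. The count of members higher without overlap, 0 with all libraries, was 1 with scaling to the 75th percentile (Hsd17b4) and ran from 0 to 3. It was 2 without C, 3 without D, 3 without E and 1 without G, where 3.60%, 3.57%, 3.46% and 2.79% of all genes tested were higher without overlap. The median of the 44 members ran from 0.053 to 0.27, that of the carnitine shuttle from -0.045 to 0.20, that of the thioesterases and pantetheinase from -0.12 to 0.72 and that of the lipid droplet genes from -0.11 to 0.32, each lowest without A. The carnitine shuttle median was 0.021 with quantile normalization. The thioesterase median was 0.065 in edgeR with RLE scaling and 0.062 with TMM scaling. The lipid droplet median was 0.015 in DESeq2 and -0.0079 in edgeR without library H.

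Members near 0 turned with the scaling. Under 75th percentile scaling Crat was -0.020, Hadh -0.027 and Crot -0.00081. Under quantile normalization Crat was -0.014, Hadh -0.10, Etfb -0.019 and Crot -0.065. In DESeq2 Crat was -0.076 and Hadh -0.0017, in edgeR with RLE scaling -0.078 and -0.0015, and with TMM scaling -0.081 and -0.0060. Without library H, DESeq2 gave -0.017 for Crat, -0.0052 for Hadh, -0.013 for Etfb and -0.013 for Plin5, and edgeR gave -0.022, -0.010, -0.017 and -0.020, with Cidec at -0.0079. Over single libraries left out, values that turned ran from -0.013 to 0.39 for Fabp1, -0.019 to 0.15 for Cpt2, -0.070 to 0.28 for Slc25a20, -0.23 to 0.20 for Crat, -0.044 to 0.068 for Hadh, -0.0067 to 0.24 for Decr1, -0.18 to 0.10 for Eci1 and -0.094 to 0.17 for Etfb. They ran from -0.058 to 0.12 for Crot, -0.0064 to 0.27 for Acot4, -0.11 to 0.058 for Acot8, -0.11 to 0.092 for Bdh1, -0.086 to 0.49 for Cyp4a10, -0.12 to 0.72 for Acot1, -0.20 to 0.33 for Acot2, -0.11 to 0.30 for Plin5 and -0.12 to 0.96 for Cidec.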
